A study of Homo sapiens with 30 samples.

Results

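The S100 genes encode small calcium-binding proteins, and 9 of them that are expressed in myeloid cells (S100A4, S100A6, S100A8, S100A9, S100A10, S100A11, S100A12, S100A13 and S100P) were followed by gene ID in 2 count tables that listed 60675 and 58051 genes. The libraries came from human acute myeloid leukemia (AML) cell lines. MV4-11 and Molm-14 carry an internal tandem duplication of FLT3, and THP-1 is a monocytic line without it. For the overexpression series, cells of MV4-11 and Molm-14 were transduced with pLenti-EF1α-GFP holding sequence of the MIR1-2 host gene, which yields the microRNA miR-1 (OE), or with the empty vector (EV). For the knockout series, cells of all 3 lines received a lentiCRISPRv2 construct with GFP and 1 guide against MPC1 (KO), or EV. MPC1 is a subunit of the carrier that takes pyruvate into mitochondria. Each of the 10 groups had 3 libraries, 30 in all. The constructs were delivered to whole cultures, and the sources used here do not say whether the KO cells were a pool or 1 clone, nor whether the 3 libraries of a group were separate cultures, so p-values measure only the spread between these libraries, which may be technical.

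S100 proteins bind calcium through EF-hand motifs, mostly act as dimers, and change shape on binding so that they can hold partner proteins. S100A8 and S100A9 pair as calprotectin, the most abundant calcium-binding complex of neutrophils and monocytes, which is released as an alarm signal and read by receptors such as TLR4 and AGER. Other members work mainly inside the cell, on annexins, myosin and the cytoskeleton, and several rise as myeloid cells mature.

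Libraries of the overexpression series held 15543301 to 20939985 counts and those of the knockout series 5339360 to 9106478, so values of the former rest on more counts. Levels are given as CPM (counts-per-million of the TMM-scaled library), and as RPKM (CPM per kilobase of exon) where genes are compared with each other. The tables list different numbers of genes, so no level was compared between them. MPC1 checked the knockout labels. It fell by 1.18 on the log2 scale in MV4-11, by 1.04 in Molm-14 and by 0.84 in THP-1, with no overlap of KO and EV in any line. The myeloid markers CD33, SPI1, PTPRC, FLT3, LYZ and CSF3R were detected in every library. CD14, a monocyte marker, reached 0.234 CPM at most in the overexpression series and 4.01 CPM in the knockout series. Of 23 markers of lymphoid, erythroid, platelet, stromal and epithelial cells, 16 stayed under 1 CPM in every library, and the epithelial keratin KRT18 was the highest, at up to 33.0 CPM.

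The filter on low counts was passed by 8 of 9 members in each series, and S100A12 was the exception. S100P passed only through Molm-14 and, in the knockout series, THP-1. On chromosome 1, the 6 members S100A9, S100A12, S100A8, S100A6, S100A4 and S100A13, lie within 153357854 to 153632039 (GRCh38), among 15 other annotated genes. Of those 15 neighbours, 0 were tested in the overexpression series and 1, the pseudogene RN7SL44P, in the knockout series, where it was not called in any line (log2 fold changes 0.21, 1.23 and −0.03 in MV4-11, Molm-14 and THP-1, edgeR FDR 0.858, 0.361 and 0.995). S100A10 (151982915 to 151993859) and S100A11 (152032506 to 152047907) lie outside that stretch on the same chromosome, and S100P lies on chromosome 4 (6693878 to 6697170). All 9 are protein coding. Exons of S100A13 share 235 bases with S100A1 on the opposite strand and 536 bases with a lncRNA on the same strand, and S100A6 shares 37 bases with a lncRNA on the opposite strand. No source used here says if reads were counted by strand, so reads of these overlaps cannot be assigned with certainty.

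The 4 genes that were called in a comparison of KO with EV were S100A8, S100A9, S100A4 and S100A11, and their promoter windows show what they do and do not share. Each window runs from 250 bases before the RefSeq transcription start (GRCh38.p14) to 50 bases after it, 5′ to 3′ on the strand of the gene, and capitals mark the letters TATAAA, the core of the TATA box that positions the start of transcription.
S100A8, chr1:153391024-153391323, minus strand: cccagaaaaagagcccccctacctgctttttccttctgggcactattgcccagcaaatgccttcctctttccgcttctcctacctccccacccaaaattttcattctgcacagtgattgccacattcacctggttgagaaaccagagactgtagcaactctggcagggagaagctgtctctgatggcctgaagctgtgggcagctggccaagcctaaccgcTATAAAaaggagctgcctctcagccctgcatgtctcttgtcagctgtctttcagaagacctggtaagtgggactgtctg
S100A9, chr1:153357604-153357903, plus strand: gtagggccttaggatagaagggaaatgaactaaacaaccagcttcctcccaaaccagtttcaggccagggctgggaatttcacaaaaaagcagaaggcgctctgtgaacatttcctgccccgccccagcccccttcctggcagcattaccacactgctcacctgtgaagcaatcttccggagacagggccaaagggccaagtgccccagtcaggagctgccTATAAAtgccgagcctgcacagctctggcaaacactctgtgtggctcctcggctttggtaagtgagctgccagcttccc
S100A4, chr1:153545757-153546056, minus strand: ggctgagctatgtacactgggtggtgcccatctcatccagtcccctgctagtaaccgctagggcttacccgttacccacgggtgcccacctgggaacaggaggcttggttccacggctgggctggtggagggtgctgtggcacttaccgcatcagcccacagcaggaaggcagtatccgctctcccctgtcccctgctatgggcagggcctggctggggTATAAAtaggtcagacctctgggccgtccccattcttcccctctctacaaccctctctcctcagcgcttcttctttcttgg
S100A11, chr1:152036955-152037254, minus strand: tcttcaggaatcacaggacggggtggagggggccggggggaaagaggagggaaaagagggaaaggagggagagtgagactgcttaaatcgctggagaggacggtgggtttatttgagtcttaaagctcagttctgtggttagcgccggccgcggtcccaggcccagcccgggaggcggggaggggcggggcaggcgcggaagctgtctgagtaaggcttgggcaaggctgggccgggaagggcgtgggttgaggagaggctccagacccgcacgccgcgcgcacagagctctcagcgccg
In S100A8 and S100A9 the first capital stands 29 bases before the start, in S100A4 31 bases before it, and S100A11 has no such run. Among the other members, S100A13 (29 bases before the start) and S100P (28) have it at a like distance and S100A12 much nearer to the start (8), while S100A10 and S100A6 have none. Thus 5 of 9 windows held TATAAA on the gene strand between 35 and 20 bases before the start, as did 2.21% of 35116 promoter windows. On either strand and at any place, 6 of 9 held it, against 11.5% of all windows. GAGGAA, the core bound by the myeloid factor PU.1, was present on either strand in S100A8, S100A9 and S100P, 3 of 9, against 27.9% of all windows. TTGCNNAA, which fits a pair of C/EBP half-sites, was present in S100A12 and S100A11, 2 of 9, against 10.5%. Matches of different motifs did not overlap in any member. A match describes letters only and is no evidence of binding.

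The sequence that the OE vector was built to add is the mature hsa-miR-1-3p, shown because its seed (bases 2 to 8, in capitals) sets which transcripts it can pair with. Its 22 bases are printed from RefSeq at the MIR1-1 copy on chromosome 20, 62554351 to 62554372, plus strand (GRCh38.p14). The vector held MIR1-2, another locus of mature miR-1, and the authors give the same bases for that insert.
hsa-miR-1-3p: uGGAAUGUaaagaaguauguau
In the 3′ UTRs of the canonical transcripts of the 9 genes, between 71 (S100A8) and 248 (S100A10) bases long, the 7-base match to that seed, ACATTCC, occurred 0 times, and so did the 8mer, 7mer-A1 and 6mer matches. The sole 7-base match in a whole transcript was in S100A12, outside its 3′ UTR.

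To see where the genes stood without miR-1 or the MPC1 guide, EV libraries of the lines were compared within each series. In the knockout series, THP-1 EV had the highest level of S100A8, S100A9, S100A4, S100A6, S100A13 and S100P, and the lowest of S100A10. S100A9 stood at 223, 209 and 184 CPM in the 3 THP-1 EV libraries, at 33.3, 21.0 and 25.0 CPM in MV4-11 EV, and at 11.1, 7.88 and 12.4 CPM in Molm-14 EV. The 3 lines did not overlap. THP-1 was higher than Molm-14 by 4.31 on the log2 scale (SE 0.16, edgeR FDR 8.54e-17) and higher than MV4-11 by 2.95 (SE 0.142, edgeR FDR 1.29e-14). S100A8 took the same order, at 57.6, 57.6 and 42.6 CPM in THP-1 EV, 9.98, 7.001 and 10.6 CPM in MV4-11 EV, and 5.38, 6.75 and 5.54 CPM in Molm-14 EV. These groups did not overlap either.

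S100A4, a calcium-dependent partner of non-muscle myosin that is linked to cell movement, was at 248, 244 and 227 CPM in THP-1 EV, 173, 144 and 158 CPM in MV4-11 EV, and 39.5, 34.9 and 44.4 CPM in Molm-14 EV. Again no groups overlapped, and MV4-11 was higher than Molm-14 (log2 difference Molm-14 minus MV4-11 −2.00, SE 0.092, edgeR FDR 1.31e-16). S100A6, known as calcyclin, was at 261, 242 and 223 CPM in THP-1 EV, 77.2, 71.2 and 79.6 CPM in Molm-14 EV, and 76.4, 45.8 and 50.7 CPM in MV4-11 EV. Molm-14 and MV4-11 overlapped there. Their difference of 0.39 (SE 0.137, edgeR FDR 0.0172) was not called without MV4-11 EV replicate 2 (FDR 0.107), MV4-11 EV replicate 3 (0.0819) or Molm-14 EV replicate 3 (0.0676), nor with the 2 groups fitted alone (0.081).

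S100A11, which binds annexin A1, set Molm-14 apart instead. It stood at 42.7, 63.4 and 58.0 CPM in MV4-11 EV, 48.4, 50.4 and 57.1 CPM in THP-1 EV, and 23.7, 25.7 and 25.3 CPM in Molm-14 EV. MV4-11 and THP-1 overlapped and were not told apart (log2 difference −0.07, SE 0.117, edgeR FDR 0.592), and both were above every Molm-14 library. S100A10, which forms a tetramer with annexin A2 at membranes, had the order Molm-14 (17.7, 18.1 and 15.2 CPM), MV4-11 (10.3, 10.501 and 13.1 CPM) and THP-1 (7.98, 8.52 and 7.97 CPM). The lines did not overlap. The step from MV4-11 to THP-1 (log2 difference −0.46, SE 0.148, edgeR FDR 0.00763) was lost without MV4-11 EV replicate 3 (FDR 0.0567) and without the filter on low counts (0.0504). S100A13, which takes part in the release of FGF1, was at 4.53 to 6.25 CPM in THP-1 EV, above 2.02 to 2.79 CPM in MV4-11 EV and 1.58 to 3.03 CPM in Molm-14 EV, which overlapped.

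S100P and S100A12 were near the limit of the depth. S100P, a calcium-binding partner of ezrin, had 2, 1 and 2 counts in MV4-11 EV of the knockout series, 13, 17 and 16 counts in Molm-14 EV (2.19, 1.91 and 2.11 CPM), and 21, 32 and 27 counts in THP-1 EV (2.79, 4.78 and 4.89 CPM). THP-1 was above Molm-14 by 0.99 on the log2 scale (SE 0.305, edgeR FDR 0.00563). S100A12, a granulocyte and monocyte alarm protein, had 10, 6 and 1 counts in THP-1 EV and 3, 11 and 3 in THP-1 KO. It had at most 1 count in any MV4-11 library and 0 counts in all Molm-14 libraries of the knockout series and in all 12 libraries of the overexpression series. Where none was counted, as many as 3 counts per library remain possible, and this limit covers counting error only.

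Of the 7 tested members other than S100P, 6 were called between Molm-14 EV and MV4-11 EV of the knockout series (61.7% of all tested genes were), 6 between THP-1 EV and MV4-11 EV (67.5%) and 7 between THP-1 EV and Molm-14 EV (69.6%). S100P is left out of these counts because it passed the filter through the lines where it is high. The lines differed in most genes, so these counts say nothing particular to S100 genes. The comparisons share EV libraries and are not independent of each other.

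**Figure D1:**
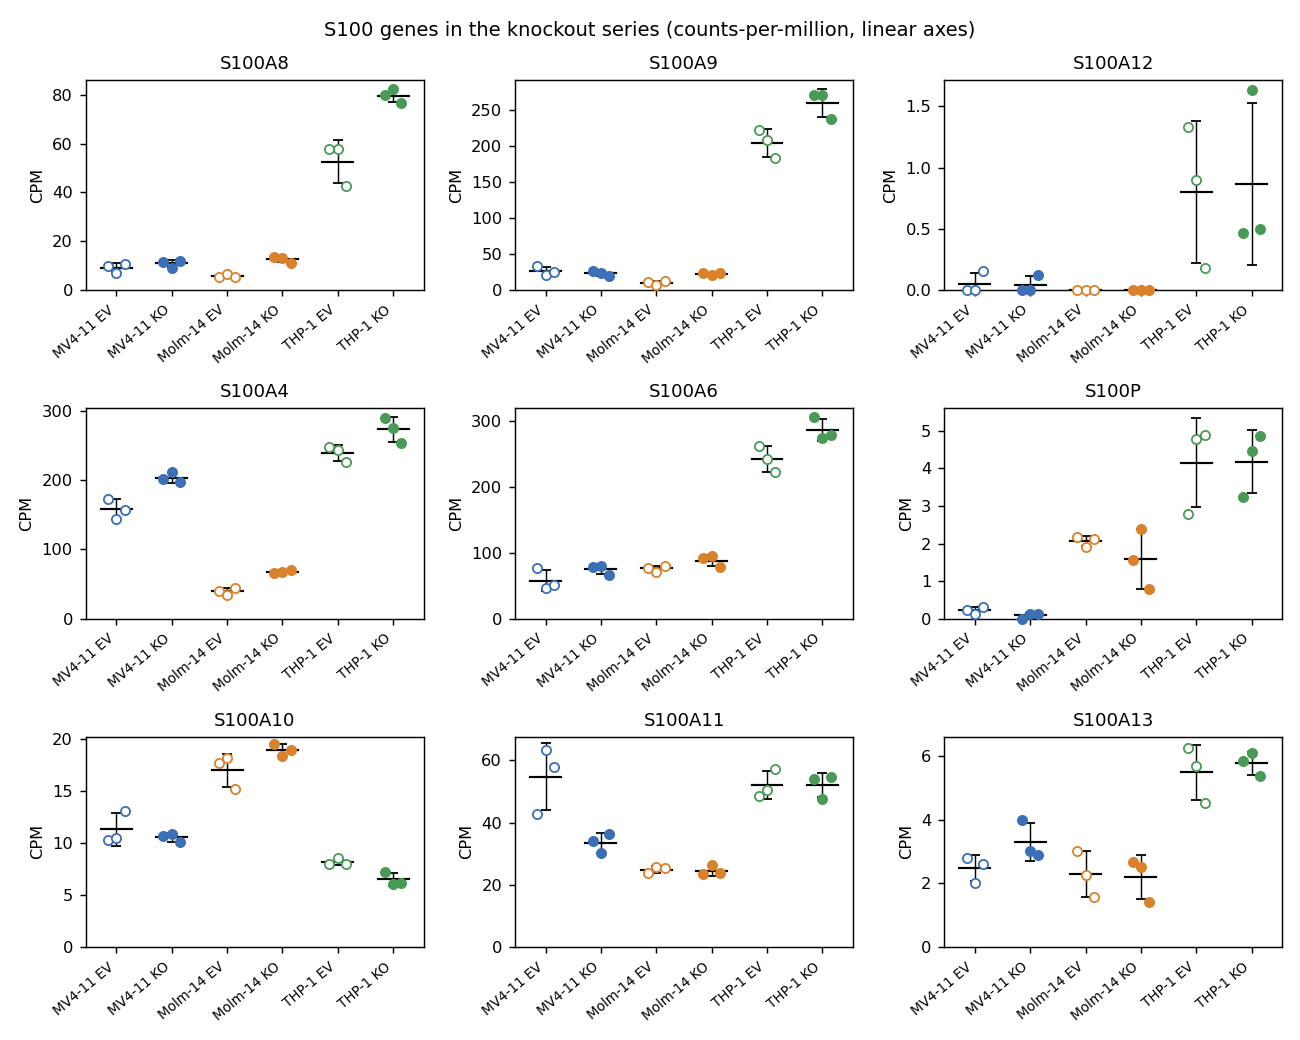
CPM of each member (y axes, linear, from 0) in the 18 libraries of the knockout series, grouped by line and construct on the x axes; open points are EV, filled points KO, horizontal bars means and error bars SD (n = 3). S100A8 and S100A9 in Molm-14 KO (means 12.6 and 23.0 CPM) lie above every Molm-14 EV library, and S100A11 in MV4-11 KO (mean 33.4 CPM) lies below every MV4-11 EV library.

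In the overexpression series, 5 of 7 members other than S100P were called between Molm-14 EV and MV4-11 EV, where 64.8% of tested genes were. S100A4 was lower in Molm-14 (33.8, 27.97 and 29.7 CPM) than in MV4-11 (121, 103 and 102.04 CPM), and S100A6 was higher (46.4, 44.8 and 41.7 CPM against 28.5, 23.8 and 25.5 CPM), as in the knockout series. S100A11 was also lower in Molm-14 there (log2 difference −0.32, SE 0.068, edgeR FDR 3.08e-04). S100P had 0 counts in the 3 MV4-11 EV libraries and a mean of 1.04 CPM in Molm-14 EV. That mean was 6.31 times the mean floor of 3 counts per MV4-11 EV library. The lowest Molm-14 EV library was 4.28 times the highest floor.

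The order of MV4-11 and Molm-14 was opposite in the 2 series for both calprotectin genes. S100A8 was at 2.40, 5.14 and 3.28 CPM in Molm-14 EV and 0.463, 1.35 and 0.353 CPM in MV4-11 EV of the overexpression series. These groups did not overlap, with Molm-14 higher by 2.26 on the log2 scale (SE 0.481, edgeR FDR 9e-04). In the knockout series Molm-14 EV was lower (log2 difference −0.63, SE 0.184, edgeR FDR 0.0045). S100A9 was at 5.11, 4.42 and 4.74 CPM in Molm-14 EV and 2.14, 2.36 and 0.707 CPM in MV4-11 EV of the overexpression series, a difference of 1.43 (SE 0.314, edgeR FDR 6.75e-04). In the knockout series it was −1.36 (SE 0.173, edgeR FDR 3.46e-07). All 4 differences stayed called in each of 11 alternative analyses. The series differ in vector, depth and the genes listed, these cannot be told apart, and the difference between series was not tested.

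Per length of all exons, S100A9, S100A4 and S100A6 led in THP-1 EV, where they made up 35.05%, 24.8% and 24.4% of the summed RPKM of the 9 genes. In MV4-11 EV of the knockout series S100A4 led with 43.99%, ahead of S100A11 with 22.4%. In Molm-14 EV S100A6 led with 38.1%, ahead of S100A4 with 20.3%. In the overexpression series S100A4 (44.4%) and S100A11 (32.6%) led in MV4-11 EV, and S100A11 (35.9%) and S100A6 (24.4%) in Molm-14 EV. The order rests on the length used. With canonical transcript lengths, S100A6 led in THP-1 EV (34.0%, with S100A4 at 28.5% and S100A9 at 21.8%) and in Molm-14 EV of the overexpression series (33.6%, with S100A11 at 25.5%), and in MV4-11 EV of the knockout series S100A6 (20.8%) came second to S100A4 (49.0%). By all exons, S100A8 and S100A9 together took 40.8% in THP-1 EV, and 14.7% and 12.1% in MV4-11 and Molm-14 EV of the knockout series.

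**Figure D2:**
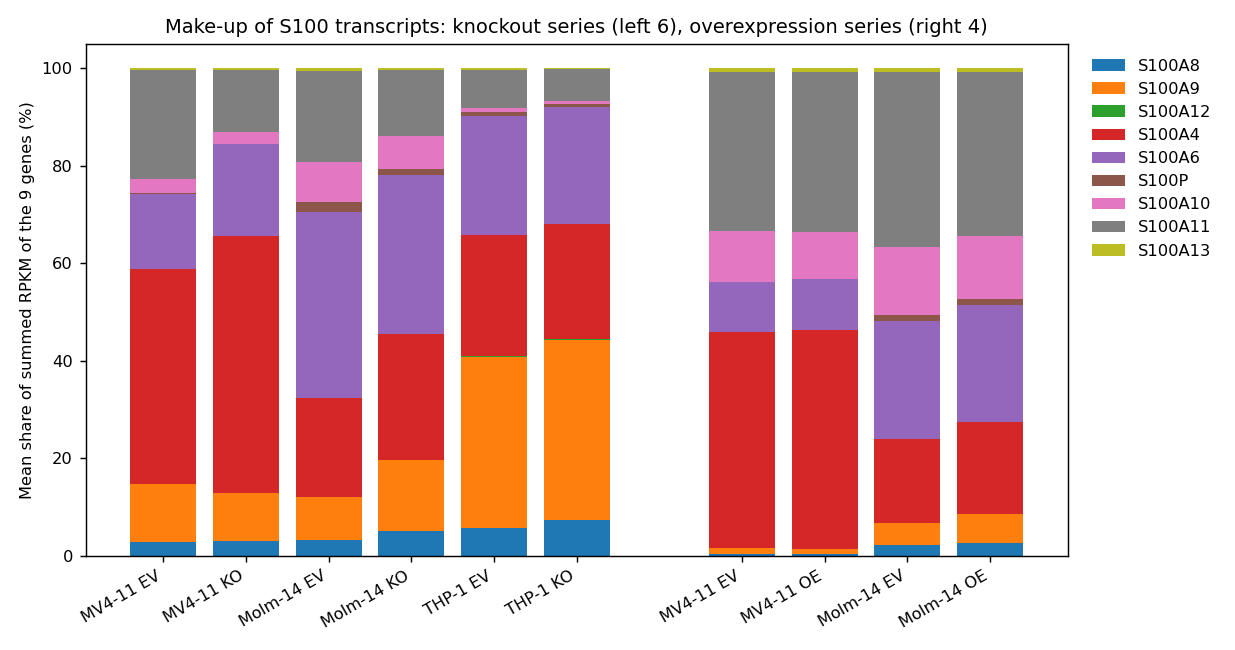
Mean share (%, y axis) of each member in the summed RPKM (all exons) of the 9 genes, for the 10 groups on the x axis (mean of 3 libraries per bar). S100A8 with S100A9 take 12.1% in Molm-14 EV and 19.6% in Molm-14 KO, and 40.8% and 44.2% in THP-1 EV and KO.

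With all exons counted, S100A9 exceeded S100A8 per length in every library. The ratio of their RPKM was 6.13 ± 0.552 in THP-1 EV, 4.50 ± 0.782 in MV4-11 EV and 2.83 ± 0.894 in Molm-14 EV of the knockout series (SD, n = 3). In THP-1 the ratio was lower in each KO library (5.28, 5.13 and 4.82) than in each EV library (6.02, 5.63 and 6.72). In MV4-11 it was 3.35 ± 0.72 in KO and in Molm-14 2.85 ± 0.362, and both overlapped their EV groups. The exon length of S100A8 includes alternative transcripts. With the length of the canonical transcript used for all 9 genes, a choice made after seeing the data, S100A8 and S100A9 together took 29.7% in THP-1 EV and 33.0% in THP-1 KO, the ratio in THP-1 was 2.80 ± 0.253 in EV and 2.33 ± 0.109 in KO, and it fell below 1 in 1 library each of Molm-14 EV in both series (0.831 and 0.613).

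To ask how deletion of MPC1 changed these genes, the KO and EV groups of a line were set against each other. The lines are given side by side, with no correlation between them drawn.

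In Molm-14, calprotectin genes and S100A4 rose. S100A8 stood at 13.5, 13.04 and 11.3 CPM in KO and 5.38, 6.75 and 5.54 CPM in EV. All KO libraries lay above all EV libraries. The gene rose by 1.08 on the log2 scale (SE 0.178, edgeR FDR 3.43e-04). The KO libraries held S100A9 at 23.8, 21.6 and 23.6 CPM, against 11.1, 7.88 and 12.4 CPM for EV, again without overlap, a rise of 1.15 (SE 0.177, edgeR FDR 2.99e-04). For S100A4 the KO libraries held 65.4, 67.2 and 70.3 CPM and the EV libraries 39.5, 34.9 and 44.4 CPM. They did not overlap, and the rise was 0.77 (SE 0.094, edgeR FDR 5.11e-06). These 3 of 8 tested members were called, where 2.4% of all tested genes were, 1.34% of them higher. Each kept its call in all 11 alternatives.

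The other members of Molm-14 moved less. S100A10 was at 19.5, 18.4 and 18.9 CPM in KO, above its EV libraries (17.7, 18.1 and 15.2 CPM), but its difference of 0.16 was not called (SE 0.126, edgeR FDR 0.763). With it, 4 of 8 members were higher without overlap, where 8.39% of tested genes were. The log2 fold change was 0.21 for S100A6 (SE 0.134, edgeR FDR 0.654), −0.03 for S100A11 (SE 0.131, FDR 0.998) and −0.01 for S100A13 (SE 0.301, FDR 1), and their groups overlapped. S100P spread widely in KO (1.58, 2.39 and 0.781 CPM) and overlapped EV. Without S100P, the 7 members had a median log2 fold change of 0.21, and all tested genes a median of 0.

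In MV4-11, S100A11 fell and S100A4 rose. S100A11 stood at 34.0, 30.1 and 36.2 CPM in KO libraries, against 42.7, 63.4 and 58.0 CPM for EV. No libraries overlapped, and EV replicate 1 was the nearest to KO. The gene fell by 0.71 on the log2 scale (SE 0.119, edgeR FDR 8.23e-04). Its log2 fold change ran from −0.86 to −0.58 over 11 alternatives and was called in each. S100A4 had 202, 212 and 198 CPM in the KO libraries and 173, 144 and 158 CPM in the EV libraries, without overlap, a rise of 0.36 (SE 0.084, edgeR FDR 0.0128). Its call was lost without EV replicate 2 (FDR 0.0826), EV replicate 3 (0.0784), KO replicate 1 (0.0554) or KO replicate 2 (0.0562). These 2 of 8 members compare with 5.41% of all tested genes called in this line, 3.17% higher and 2.24% lower.

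The call of S100A6 in MV4-11 depended on 1 EV library and on the settings of the fit. KO libraries held 78.8, 79.8 and 66.2 CPM and EV libraries 76.4, 45.8 and 50.7 CPM, where EV replicate 1 lay among the KO libraries. The log2 fold change of 0.37 was not called (SE 0.136, edgeR FDR 0.115), and without EV replicate 1 it was 0.64 (edgeR FDR 5.58e-04). With all libraries kept, it was also called without the filter on low counts (edgeR FDR 0.00916) and with a replicate block (0.0446). EV replicate 1 was likewise the lowest of its group for S100A11 and the highest for S100A9 (33.3 against 21.0 and 25.0 CPM) and S100A4. The part of this library in the results was not tested beyond leaving it out. The calprotectin genes were not called in MV4-11, with log2 fold changes of 0.25 for S100A8 (SE 0.167, edgeR FDR 0.391) and −0.20 for S100A9 (SE 0.154, edgeR FDR 0.484), and both overlapped. S100A10 (−0.09) overlapped too. S100A13 had no overlap (KO 3.98, 3.01 and 2.89 CPM, EV 2.79, 2.02 and 2.62 CPM) but was not called (difference 0.40, SE 0.266, edgeR FDR 0.398). Thus S100A4 and S100A13 were higher without overlap, as were 15% of tested genes, and S100A11 lower, as were 9.1%. S100P had too few counts there to be read. Without S100P, which had 0, 1 and 1 counts in KO, the median log2 fold change of 7 members was 0.25, beside 0.0153 over all tested genes.

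In THP-1, S100A8 alone passed the test. It stood at 79.8, 82.1 and 76.7 CPM in KO libraries, above 57.6, 57.6 and 42.6 CPM in EV libraries, by 0.59 on the log2 scale (SE 0.121, edgeR FDR 0.0495). It was the single member called, where 0.0897% of all tested genes were, and the call was lost in 7 of 11 alternatives. These were the fit of the 2 groups alone (FDR 0.12) and every fit lacking a library, with an FDR of 0.0676 without EV replicate 1, 0.0976 without EV replicate 2, 0.423 without EV replicate 3 (the lowest EV library), 0.344, 0.415 and 0.077 without KO replicates 1, 2 and 3. Its partner S100A9 had 271, 271 and 238 CPM for KO against 223, 209 and 184 CPM for EV, without overlap, and was not called (0.34 on the log2 scale, SE 0.123, edgeR FDR 0.499). S100A4 (KO 290.0, 276 and 255 CPM, EV 248, 244 and 227 CPM) and S100A6 (306, 274 and 278 CPM in KO, 261, 242 and 223 CPM in EV) also separated without a call, with log2 fold changes of 0.19 and 0.24 (edgeR FDR 0.566 and 0.65). S100A10 separated in the other direction, with 7.25, 6.09 and 6.20 CPM for KO against 7.98, 8.52 and 7.97 CPM for EV (−0.32 on the log2 scale, SE 0.164, edgeR FDR 0.637). Thus 4 members were higher and 1 lower without overlap, where 6.8% and 6.79% of tested genes were. S100A11, S100A13 and S100P overlapped, with log2 fold changes between 0.00 and 0.06. The median log2 fold change without S100P was 0.19, beside 0.00338 over all tested genes.

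**Figure D3:**
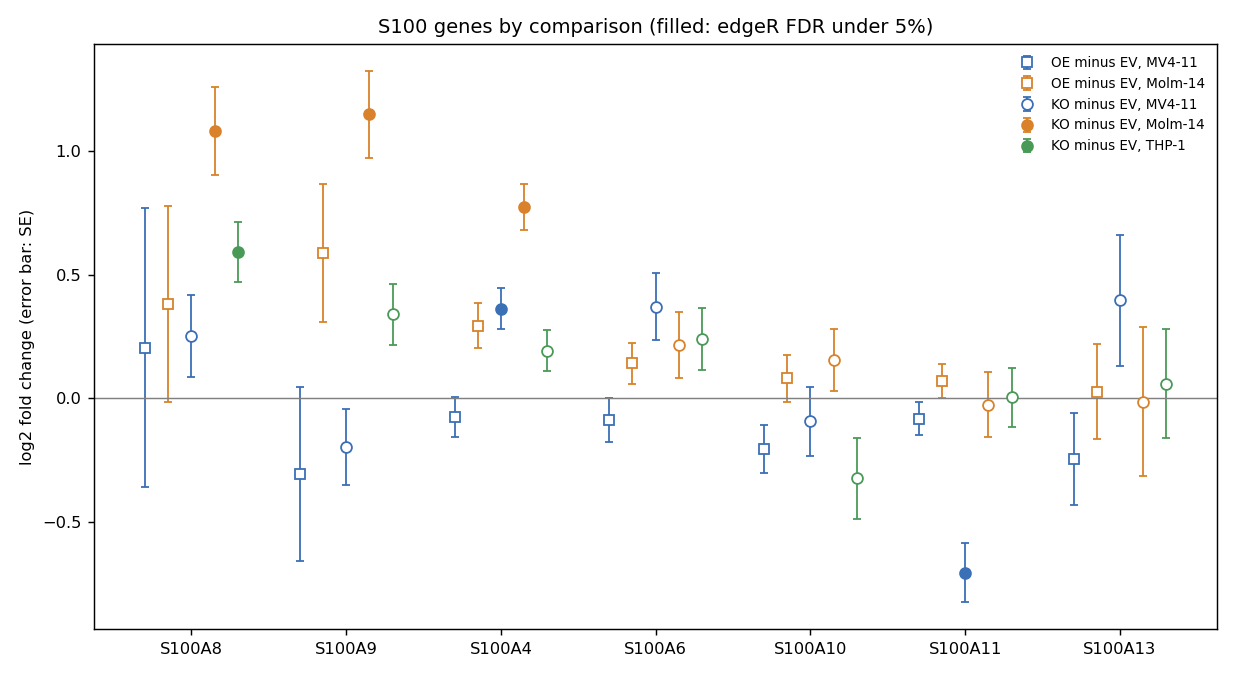
Log2 fold change (y axis, error bars SE) of 7 members (x axis) in the 5 comparisons with EV; circles are KO minus EV, squares OE minus EV, colors the line (blue MV4-11, orange Molm-14, green THP-1), and filled symbols were called (edgeR FDR under 5%). S100P and S100A12 are left out because of low counts; the largest values are S100A9 (1.15) and S100A8 (1.08) in Molm-14 KO, and the lowest is S100A11 (−0.71) in MV4-11 KO.

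Whether the effect of KO differed between lines was tested in the same model, as a difference of log2 fold changes. Between Molm-14 and MV4-11, 2 of 8 members were called, where 1.48% of tested genes were. S100A9 differed by 1.35 (SE 0.235, edgeR FDR 0.00318), with 1.15 in Molm-14 and −0.20 in MV4-11, and kept its call in all 17 alternatives. S100A11 differed by 0.68 (SE 0.177, edgeR FDR 0.0479), with −0.03 in Molm-14 and −0.71 in MV4-11. It lost its call in 11 of 17 alternatives, with an FDR of 0.0622 with the groups fitted alone and of up to 0.164 (without Molm-14 KO replicate 2) when any of 10 libraries was left out. The 2 that kept it were the fits without MV4-11 EV replicate 1 and MV4-11 KO replicate 3. S100A8 differed by 0.83 (SE 0.245, edgeR FDR 0.0871) and S100A4 by 0.41 (SE 0.126, edgeR FDR 0.101), neither of them called. With DESeq2 in place of edgeR both passed (FDR 0.0469 and 0.0459). By edgeR, S100A8 also passed without the filter on low counts (FDR 0.0294), with a replicate block (0.0459) and without MV4-11 EV replicate 2 (0.0339).

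Between THP-1 and Molm-14, 1 of 8 members was called, where 0.766% of tested genes were. S100A4 differed by −0.58 (SE 0.126, edgeR FDR 0.0166), with 0.19 in THP-1 and 0.77 in Molm-14. It lost its call without Molm-14 EV replicate 2 (FDR 0.0868), Molm-14 KO replicate 2 (0.0505), Molm-14 KO replicate 3 (0.0658), THP-1 EV replicate 1 (0.0575) or THP-1 KO replicate 3 (0.0502). S100A9 differed by −0.81 (SE 0.216, edgeR FDR 0.101) and was not called. It passed with DESeq2 (FDR 0.0233). By edgeR it passed without the filter on low counts (FDR 1.52e-04), with a replicate block (0.0143) and with the groups fitted alone (0.0168). S100A8 differed by −0.49 (SE 0.216, edgeR FDR 0.559). Between THP-1 and MV4-11, 0 of 8 members were called by edgeR, where 0.193% of tested genes were and 1311 genes had an unadjusted p under 0.05. S100A11 came nearest (0.71, SE 0.168, edgeR FDR 0.0813) and passed with DESeq2 (FDR 0.041). By edgeR it passed without the filter on low counts (FDR 0.0105), without MV4-11 EV replicate 1 (0.00285) and without THP-1 EV replicate 3 (0.0473). The 3 differences share groups and are not independent of each other.

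The partners of S100 proteins and other myeloid genes were read from lists. Calls of list genes rest on the main fit, because the alternatives were read for members alone. In MV4-11 KO the genes called over the whole table ran from 133 to 1474 over those alternatives, so calls near the threshold are weak. Among 11 tested intracellular partners, 2 were called in MV4-11 KO, where 5.41% of all tested genes were. ANXA2, the annexin bound by S100A10, was at 151 CPM in MV4-11 KO and 91.6 CPM in its EV group and rose (by 0.72 on the log2 scale, SE 0.109, edgeR FDR 2.89e-04), and ANXA11 fell (−0.56, SE 0.123, edgeR FDR 0.0104). S100A10 itself averaged 10.54 CPM with KO and 11.3 CPM without in that line (−0.09 on the log2 scale, edgeR FDR 0.743). ANXA1, the partner of S100A11, had a log2 fold change of 0.08 (edgeR FDR 0.746) where S100A11 fell. In Molm-14 KO and THP-1 KO 0 partners were called by edgeR. ANXA2 had log2 fold changes of 0.32 (edgeR FDR 0.181) and 0.18 (0.697) there.

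Among 7 tested receptors and surface binding proteins of secreted S100 proteins, 1 was called in Molm-14 KO, where 2.4% of all tested genes were. CD36, a scavenger receptor, was at 31.7 CPM in Molm-14 KO and 18.6 CPM in its EV group and rose (by 0.77 on the log2 scale, SE 0.119, edgeR FDR 1.44e-04), in the line where S100A8 and S100A9 rose. In MV4-11 KO and THP-1 KO edgeR called 0 of the 7. TLR4 had log2 fold changes of 0.32, 0.25 and 0.26 in MV4-11, Molm-14 and THP-1 (edgeR FDR 0.0931, 0.777 and 0.541), and AGER stood between 0.948 and 1.87 CPM on average in the 6 groups. CYBB, the catalytic subunit of the phagocyte NADPH oxidase that calprotectin helps to assemble, fell in MV4-11 KO (−0.46, SE 0.106, edgeR FDR 0.013). It was among 2 of 6 tested oxidase genes called lower there, where 2.24% of all tested genes were. S100A8 and S100A9 were not called in that line.

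Of 14 tested myeloid maturation genes, 4 fell in MV4-11 KO and 0 rose, where 2.24% of all tested genes were called lower and 3.17% higher. They were the granule proteases ELANE (−1.06, SE 0.194, edgeR FDR 0.00849), PRTN3 (−0.72, SE 0.115, edgeR FDR 7.48e-04) and AZU1 (−0.70, SE 0.11, edgeR FDR 4.35e-04), and the nuclear protein MNDA (−0.64, SE 0.158, edgeR FDR 0.0186). In Molm-14 KO 4 fell and 1 rose, where 1.06% of all tested genes were called lower and 1.34% higher. The granule enzymes MPO (−1.11, SE 0.1, edgeR FDR 3.41e-08), CTSG (−0.86, SE 0.096, edgeR FDR 1.22e-06) and PRTN3 (−0.61, SE 0.117, edgeR FDR 0.00287) fell with MNDA (−0.80, SE 0.132, edgeR FDR 4.53e-04). Lysozyme, LYZ, rose from 321 to 626 CPM (0.96, SE 0.104, edgeR FDR 8.32e-07). The median of the list was −0.308 in MV4-11 and −0.182 in Molm-14. The list joins granule enzymes such as MPO with monocyte markers such as CD14, so neither its counts nor its median measures maturation. Of 10 myeloid transcription factors, IRF8, a factor of monocyte development, rose in MV4-11 KO (0.27, SE 0.082, edgeR FDR 0.0463) and in Molm-14 KO (0.84, SE 0.083, edgeR FDR 1.4e-07). SPI1, which encodes PU.1, fell in MV4-11 KO (−0.46, SE 0.137, edgeR FDR 0.0486). In THP-1 KO 0 genes of these lists were called by edgeR, where 13 genes were over the whole table and 1160 had an unadjusted p under 0.05. In bulk libraries a change in the share of cells of a type and a change of RNA per cell cannot be told apart. KRT18, of the list for other cell types, averaged 4.14 CPM in MV4-11 KO, above the 2.06 CPM of its EV group, and was called (0.98, SE 0.258, edgeR FDR 0.0278). The summed level of that list was 16.1 to 21.8 CPM in MV4-11 KO and 15.6 to 18.3 CPM in MV4-11 EV, and its part in the results was not tested. Of 9 tested interferon-stimulated genes, edgeR called 0 with KO in any line.

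To ask whether miR-1 changed these genes, OE was compared with EV. In MV4-11 the groups overlapped for all 8 tested members (9.17% of tested genes did not overlap) and 0 were called by edgeR, where 0.177% of all tested genes were and 1035 genes had an unadjusted p under 0.05. S100A10 had the smallest p (26.1, 23.5 and 21.2 CPM in OE, 23.9, 26.9 and 30.8 CPM in EV, log2 fold change −0.20, SE 0.096, unadjusted edgeR p 0.0457, FDR 0.83). S100A4 had a log2 fold change of −0.08 (SE 0.081), S100A11 of −0.08 (SE 0.067) and S100A6 of −0.09 (SE 0.09), each with an edgeR FDR of 1, and S100A13 of −0.24 (SE 0.186, edgeR FDR 0.995). S100P had 2 counts in 1 OE library and 0 in the other MV4-11 libraries. S100A8 (0.299, 0.775 and 1.4998 CPM in OE, 0.463, 1.35 and 0.353 CPM in EV) and S100A9 (0.956, 1.14 and 2.17 CPM in OE, 2.14, 2.36 and 0.707 CPM in EV) varied several-fold within groups at 5 to 49 counts per library, and the 95% intervals of their log2 fold changes ran from −0.90 to 1.31 and from −0.997 to 0.38. MV4-11 OE replicate 1 stood apart in 10 interferon-stimulated genes, with a summed level of 358 CPM against 11.8 and 13.5 CPM in the other OE libraries, and EV replicate 3 had 57.8 CPM. S100A8 and S100A9 were at their lowest of the OE group in the former and at their lowest of the EV group in the latter. Without either library 0 members were called by edgeR.

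In Molm-14, 0 members were called by edgeR, where 0.0057% of tested genes were and 768 genes had an unadjusted p under 0.05. S100A4 was at 36.7, 37.2 and 38.3 CPM in OE and 33.8, 27.97 and 29.7 CPM in EV, without overlap (log2 fold change 0.29, SE 0.091, unadjusted edgeR p 0.0049, FDR 1). S100A9 was at 7.58, 6.81 and 7.05 CPM in OE and 5.11, 4.42 and 4.74 CPM in EV, also without overlap (0.59, SE 0.28, unadjusted edgeR p 0.0513, FDR 1). These 2 of 8 members without overlap, both higher, compare with 7.8% of tested genes. In a fit of just the 6 Molm-14 libraries, both were called (FDR 0.0138 and 0.0272), beside 195 genes over the table. S100A8 overlapped, at 4.65, 4.50 and 4.99 CPM in OE and 2.40, 5.14 and 3.28 CPM in EV. All 7 members other than S100P had log2 fold changes above 0, with a median of 0.14, beside 0 over all tested genes. Whether the members moved jointly was not tested. Their remaining log2 fold changes were 0.38 for S100A8, 0.14 for S100A6, 0.08 for S100A10, 0.07 for S100A11 and 0.03 for S100A13, each with an edgeR FDR of 1. S100P overlapped as well, at 1.17, 1.24 and 1.197 CPM in OE and 0.757, 1.37 and 0.994 CPM in EV. Between the lines, 0 members differed in their OE effect by edgeR, where 0.0456% of tested genes did and 929 genes had an unadjusted p under 0.05. In both lines 0 partners, receptors, transcription factors, maturation genes, interferon-stimulated genes or markers of other cell types of the lists were called by edgeR.

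**Figure D4:**
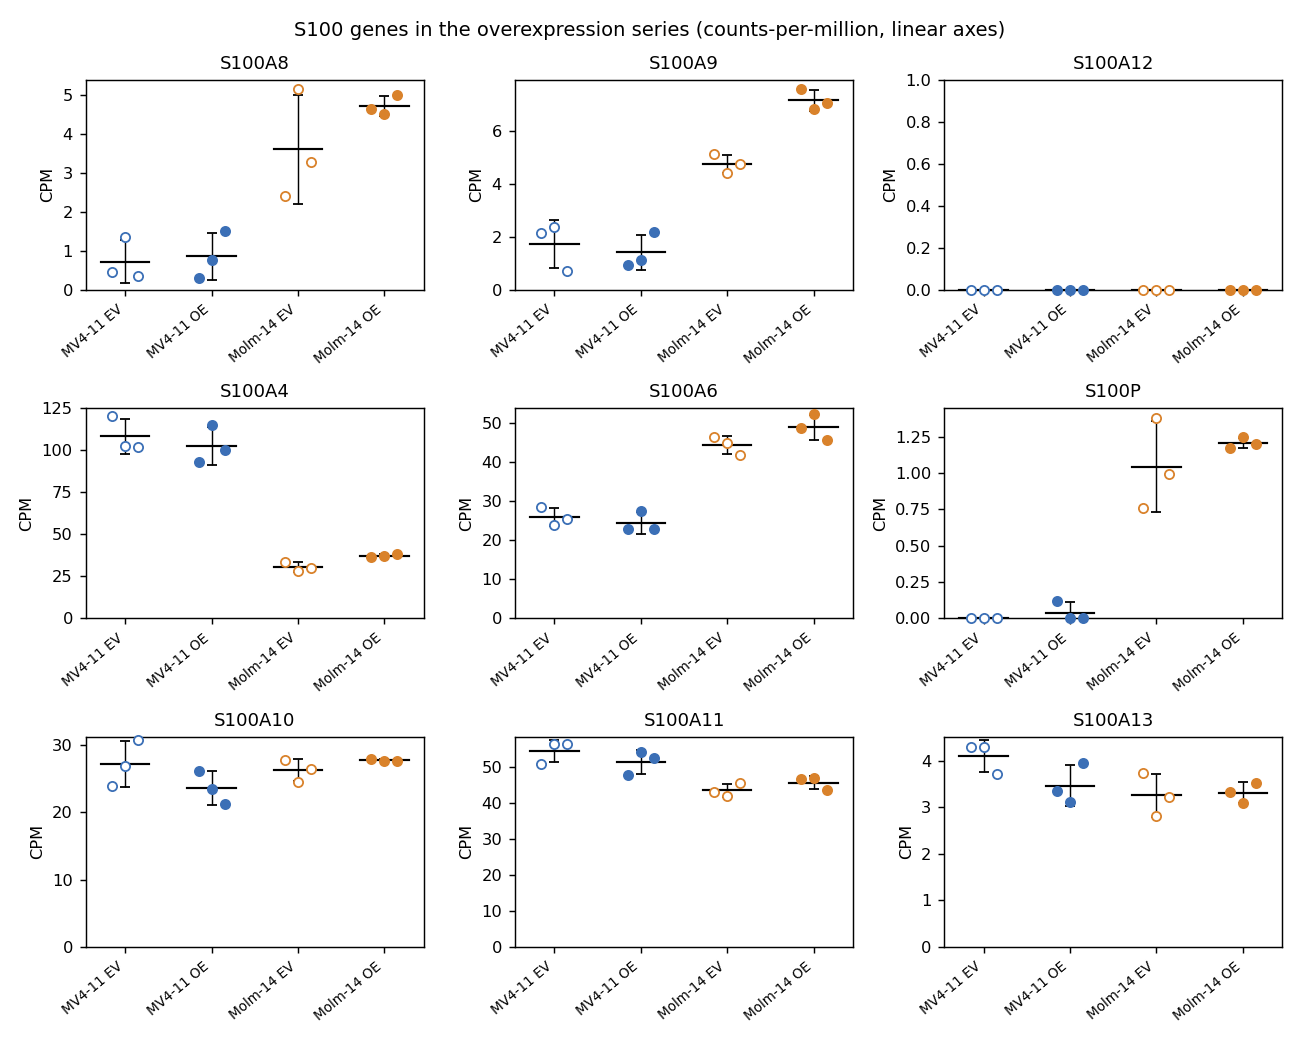
CPM of each member (y axes, linear, from 0) in the 12 libraries of the overexpression series, grouped by line and construct on the x axes; open points are EV, filled points OE, horizontal bars means and error bars SD (n = 3). S100A9 in Molm-14 OE (mean 7.15 CPM) lies above all Molm-14 EV libraries (mean 4.76 CPM), the MV4-11 groups overlap for every member, and S100A12 had 0 counts throughout.

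Across libraries, members were compared with 9818 genes of at least 8 CPM on average in the knockout series, as a description. The points share the differences between lines, so r is high for many genes. S100A4 was most like YOD1 (Pearson r of log2 CPM 0.992 over 18 libraries) and MYO1E (0.985). These had r of 0.977 and 0.975 over the 12 libraries of the overexpression series. The lines differed in S100A4 there too (log2 difference Molm-14 EV minus MV4-11 EV −1.83), which alone can give a high r. S100P was most like QPRT and CDKN2C (0.975 for both), with 0.971 and 0.972 in the other series. Since S100P had at most 2 counts in any MV4-11 library, these values mostly describe the split between lines. S100A9 was most like FAM111B (0.986) and TNN (0.984), but over the 12 libraries FAM111B had r of −0.902. TNN had 0.804. S100A8 was most like RNF175 (0.977) and LINC00467 (0.976), with 0.62 and 0.673 over the 12 libraries. S100A11 was most like UXS1 (0.967) and FNDC3B (0.959), with 0.863 and 0.805. S100A6 was most like PPIH and EPDR1 (0.984 for both), with 0.766 and −0.157. S100A10 was most like HPS1 and EIF2B1 (0.974 for both), with 0.301 and 0.286, and S100A13 like DIPK2A (0.952) and LILRA2 (0.94), with −0.0382 and 0.34.

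Among the members themselves, S100A8 and S100A9 had the highest r over the 18 libraries (0.978), and 0.933 over the 12 libraries of the overexpression series. After group means were taken out, r was 0.171 and 0.668. S100A9 and S100A4 then had 0.851 in the knockout series, the highest of all member pairs there, and 0.273 in the overexpression series. In the knockout series S100A9 had 0.751 with S100A6 and −0.70 with S100A11. MV4-11 EV replicate 1, at an end of its group for these genes, is among the libraries, and its part in r was not tested. Libraries of a group differ in depth, and the counts of S100A8 were low in MV4-11. Of 11 other S100 genes, S100B alone was tested, at up to 3.02 CPM, and 9 stayed under 1 CPM in every library.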

How the data were processed

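RNA of AML cell lines was sequenced after ribosomal RNA depletion with a stranded total RNA kit. The authors removed optical duplicates, trimmed reads with cutadapt 1.16, aligned them to GRCh38 (Ensembl release 102) with STAR 2.7.6a in two-pass mode, and deposited raw read counts per gene from featureCounts 1.6.3. Tool versions follow the submitters' processing notes. Whether the counting used strand is not given in the sources used here. The 2 tables list different numbers of genes and just release 102 is named, so the annotation behind the knockout table is uncertain.

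Counts were tested as deposited with edgeR 4.0.16 in R 4.3.3 (filterByExpr with a minimum count of 10, TMM, robust quasi-likelihood, group means, 1 model per series). P-values were adjusted by Benjamini-Hochberg over all tested genes (17542 in the overexpression and 14490 in the knockout series), and genes under a 5% FDR were called. Replicate pairs differed by more than sampling noise (chi-square per degree of freedom 1.55 to 17.8 over 30 pairs), and all 30 libraries were kept. Positions, exon lengths and transcripts came from GENCODE release 44 on GRCh38, promoters and miRNAs from RefSeq. Log2 CPM for r used a prior count of 2. The fits were tested on simulated data. DESeq2 1.42.0, RLE factors, no filter, the groups compared alone, a replicate block and leaving out each library were tried.

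Named genes are the 9 members, MPC1, ANXA2, ANXA1, TLR4, AGER, called genes of the lists (up to 3 per list and comparison by size), tested cluster neighbours, and 2 genes most like each member in pattern. MNDA in MV4-11, and PRTN3 and MNDA in Molm-14, were named beyond that limit to complete a count. Members and lists were chosen with earlier results of these data known. The list of phagocyte NADPH oxidase genes is not reported here as a whole.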

Additional observations from a re-analysis of the deposited data

Results flagged for a closer look

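Differences of the KO effect between lines passed the test for 3 genes. They were S100A9 (1.35 on the log2 scale) and S100A11 (0.68) for Molm-14 against MV4-11, and S100A4 (−0.58) for THP-1 against Molm-14, each by edgeR in the contrast of the effects. S100A11 lost its call in 10 of 12 fits that left out 1 library and with the groups fitted alone, and S100A4 in 5 of 12.

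The EV levels of S100A8 and S100A9 stood in opposite order in the 2 series. Every Molm-14 EV library was above every MV4-11 EV library in the overexpression series (log2 differences 2.26 for S100A8 and 1.43 for S100A9) and below in the knockout series (−0.63 and −1.36). The difference between the series was not tested.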

How the results depend on the processing

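Over 11 to 17 alternatives per comparison, 1325 log2 fold changes were recomputed for 104 results. Of these, 1274 stayed on their side of the 5% FDR with the direction of any called value, 33 lost a call, 18 gained one and 0 called values changed sign, while 45 values that were not called changed sign. Of 37 called results, 31 were called in every alternative. The 37 include 6, 7, 7 and 8 differences of EV level between lines. Without S100P, which passed the filter through the lines where it is high, these are 5, 6, 6 and 7. Most tested genes were called between lines, so the total of 31 mostly describes line differences and says little about KO effects. Among KO effects, some alternatives lost the calls of S100A4 in MV4-11 and S100A8 in THP-1. Among differences of KO effects they lost S100A11 (Molm-14 against MV4-11) and S100A4 (THP-1 against Molm-14). The other losses were EV levels of S100A6 (Molm-14 against MV4-11) and S100A10 (THP-1 against MV4-11), both in the knockout series.

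With only the groups compared in the fit, the members called went from 0 to 2 in Molm-14 OE, from 1 to 0 in THP-1 KO, from 2 to 1 in the difference of KO effects of Molm-14 and MV4-11, and from 1 to 2 in that of THP-1 and Molm-14. With DESeq2 they went to 4, 1 and 2 in the differences of Molm-14 and MV4-11, THP-1 and MV4-11, and THP-1 and Molm-14, where edgeR called 2, 0 and 1. Without the filter on low counts they went to 1 and 2 in the latter pair. Leaving out 1 library gave 1 to 3 members called in MV4-11 KO, 0 in THP-1 KO in each case, 1 to 2 in the difference of Molm-14 and MV4-11, 0 to 1 in that of THP-1 and MV4-11, and 0 to 1 in that of THP-1 and Molm-14.

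Replicate numbers were not taken to pair libraries, because in no comparison did every same-numbered pair deviate together with r over 0.1 (from −0.377 to 0.33 over all genes). THP-1 KO came nearest, with r of 0.179, 0.0987 and 0.33 and every library closest to its own number, a hint from the data and not the design. With a replicate block, 3 members were called in MV4-11 KO (S100A6 added, FDR 0.0446), 3 in the difference of Molm-14 and MV4-11 and 2 in that of THP-1 and Molm-14, and no call of a member was lost.

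Counts over all genes moved more. The lowest and highest were 9 and 123 in MV4-11 OE (31 as reported), 1 and 195 in Molm-14 OE (1), 133 and 1474 in MV4-11 KO (784), 183 and 412 in Molm-14 KO (348), and 3 and 30 in THP-1 KO (13). For differences they were 2 and 33 for OE (8), and for KO 105 and 388 (215), 18 and 80 (28), and 78 and 159 (111) in the order above. Low counts limited S100A12, S100P, and S100A8 and S100A9 in MV4-11 of the overexpression series.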
